A study of Mus musculus with 22 samples.

Results

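The stretch of mouse chromosome 15 described here holds 2 genes, Tab1 and Mgat3, which both read from left to right. All RNA polymerase II (PolII) peaks of the 18 deposited peak lists that fall in a 120 kb window, which runs from -33.6 to 86.4 kb of the Tab1 transcription start site in the mm9 build, were taken, which gave 349 peaks of the 1309572 in all lists. Peaks of different libraries that overlapped were merged, and the window then held 37 of the 169903 merged regions of the series. The window was selected on values of these same lists, the presence and covered length of its peaks in control and auxin libraries, so every comparison between control and auxin below is a description, given per library and without a test.

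The cells were G1E-ER4, a subline of the GATA1-null mouse proerythroblast line G1E, used without induction of GATA1. Both CTCF alleles carried a C-terminal fusion to an auxin-inducible degron and mCherry, and the plant F-box protein OsTiR was expressed from the retroviral vector MigR1 together with GFP. All libraries came from this engineered line, so the control cells carried the degron and OsTiR too and received no auxin. Cells were held in prometaphase with 200 ng/ml nocodazole and harvested at 0 h, or at 1 h (early-G1), 2 h (mid-G1) or 4 h (late-G1) after its removal, with or without auxin during the end of the arrest and the release. PolII ChIP-seq was carried out on sorted cells with 2 libraries per stage and condition, and 3 per condition in mid-G1. The late-G1 control libraries are numbered 2 and 3, as in the labels. Each library is a population of cells, so weaker PolII signal in all cells and signal lost from a share of the cells cannot be told apart.

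Tab1 encodes an adaptor that binds and activates the kinase TAK1 (encoded by Map3k7), which relays signals from cytokine receptors to the NF-kappa-B and MAP kinase pathways. Mgat3 encodes the Golgi enzyme that adds the bisecting N-acetylglucosamine to N-glycans. PolII usually gathers just after the transcription start site (TSS), where it pauses, then moves through the gene body and on past the polyadenylation site before it leaves the DNA. Genes are largely silent in mitosis and are switched on again as cells enter G1. CTCF is a zinc-finger protein that, with cohesin, marks the anchors of chromatin loops and domain boundaries.

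Tab1 (ENSMUSG00000022414.7) spans 79963584 to 79992131, which is 28548 bp with 11 exons. Its first exon is 35 bp long and is followed by an intron of 15038 bp, so that exon 2 begins 15.1 kb from the TSS. Mgat3 (ENSMUSG00000042428.6) spans 80004151 to 80045949, which is 41799 bp with 2 exons and an intron of 37134 bp. The genes are 12.0 kb apart. To the left lies the 3' part of Syngr1, which encodes a synaptic vesicle protein and ends 13.7 kb before the Tab1 TSS. Promoters were taken as 1 kb on either side of each TSS, gene bodies as the rest of each gene.

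The next 3 sequences, all on the plus strand of mm9, were chosen because they lie under the peaks on which the description turns. The first lies in Tab1 intron 1 at chr15:79968939-79969078, 5.4 kb from the TSS, and its 120 capital letters were under peaks of 5 control lists and of 0 auxin lists. The second lies near the end of the same intron at chr15:79977631-79977762, 14.1 kb from the TSS, and its 12 capital letters were under peaks of all 7 control and all 7 auxin post-mitotic lists. The third lies past the end of Tab1 at chr15:79994693-79994832, 31.1 kb from the TSS, and its 120 capital letters were under peaks of 6 control lists and of 0 auxin lists.
Tab1 intron 1, 5.4 kb: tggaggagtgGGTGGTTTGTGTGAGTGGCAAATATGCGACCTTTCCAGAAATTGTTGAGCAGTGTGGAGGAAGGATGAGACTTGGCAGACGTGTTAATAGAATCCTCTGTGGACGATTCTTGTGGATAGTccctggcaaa
Tab1 intron 1, 14.1 kb: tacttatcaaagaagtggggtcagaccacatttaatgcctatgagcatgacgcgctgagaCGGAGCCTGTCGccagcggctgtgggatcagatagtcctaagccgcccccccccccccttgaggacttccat
Tab1 to Mgat3, 31.1 kb: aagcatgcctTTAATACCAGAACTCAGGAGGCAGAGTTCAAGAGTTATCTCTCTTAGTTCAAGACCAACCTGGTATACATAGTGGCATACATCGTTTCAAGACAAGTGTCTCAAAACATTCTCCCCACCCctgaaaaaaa
The capital letters of the second sequence were 75% G or C with 2 CG dinucleotides, those of the first 45.8% with 3 and those of the third 42.5% with 1.

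The lists themselves differed in size and depth. Prometaphase lists held 2414 to 3918 peaks and post-mitotic lists 50594 to 117125. Depth, estimated from the background level that the peak caller used in each list, was 4.94 to 5.95 reads per kb in prometaphase, 4.54 to 13.3 in post-mitotic control libraries and 7.53 to 9.27 in post-mitotic auxin libraries. Mid-G1 control replicate 1 was the shallowest library at 4.54 reads per kb. All 10 erythroid precursor markers examined, such as Kit, Tal1 and Klf1, had a peak over the TSS in at least 1 post-mitotic list, and 7 of them in all 14. Of 8 markers of other cell types, 0 had one in any post-mitotic list.

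No peak of the window was present in any of the 4 prometaphase lists. After release every list held some, from 13 to 38 in control and from 17 to 22 in auxin. Their fold enrichment over the local background ranged from 2.92 to 49.4, and their summits held 8 to 154 reads. The peaks were short, with a median of 322 bp. Peaks lay from the end of Syngr1 over the Tab1 promoter and first intron, past the end of Tab1 in control lists, and again near the right edge of the window, and Mgat3 was bare in all 18 lists.

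**Figure D1:**
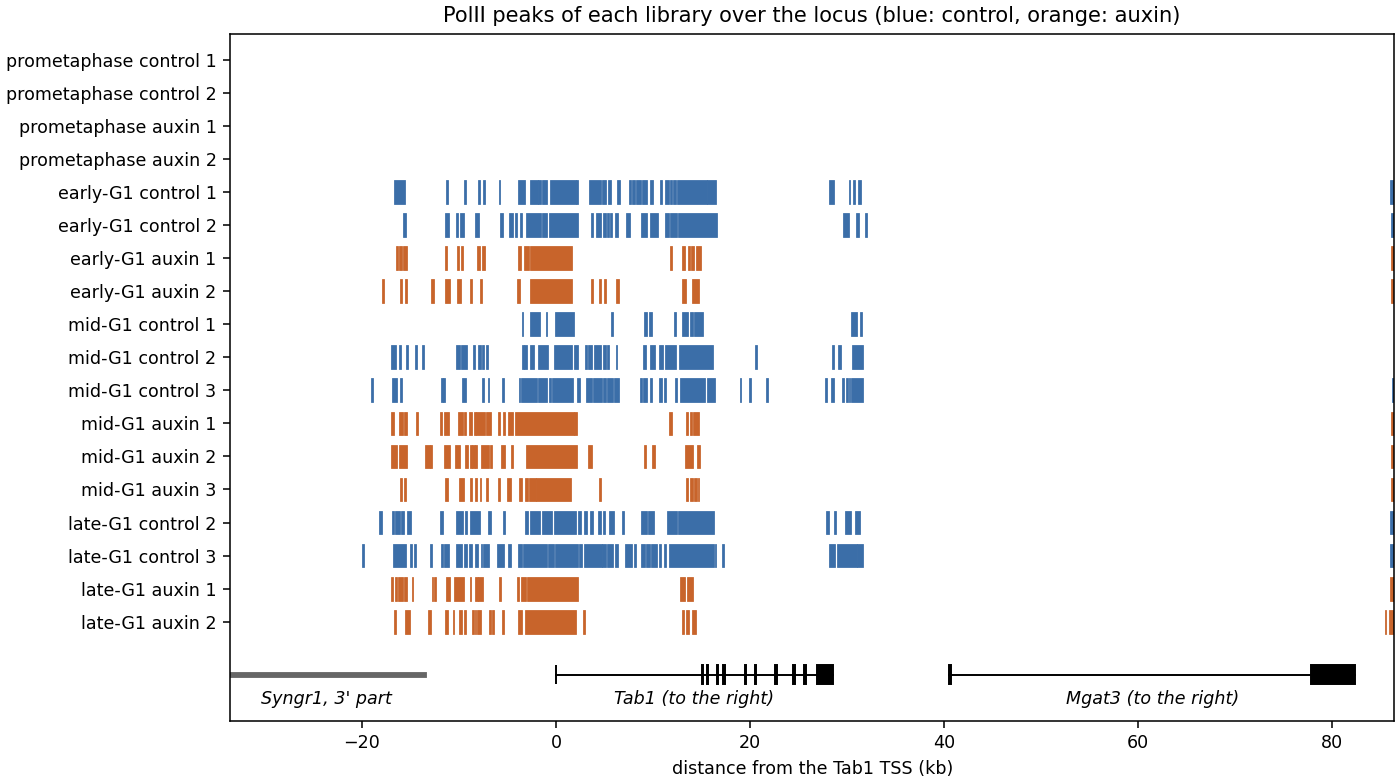
PolII peaks of each of the 18 libraries over the window, by distance from the Tab1 TSS in kb, with control in blue and auxin in orange and the exons of Tab1 and Mgat3 drawn below. The 4 prometaphase rows are empty, the rows of control libraries are filled over Tab1 intron 1 and hold peaks past the Tab1 end, and no row has a peak over Mgat3.

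Merged regions were not shared evenly between conditions. Of the 37, 2 were in all 14 post-mitotic lists, 2 were in all 7 control and in 0 auxin lists, and 0 were in all 7 auxin and 0 control lists. Over the whole series, 0.0053% of the 169770 post-mitotic regions were in 7 control and 0 auxin lists and 0.00707% in 7 auxin and 0 control lists. The window was chosen with these lists in view, so nothing is read from its higher share. The 18 regions that began past the promoter peak and before Mgat3 were in more control than auxin lists in 17 cases and in more auxin lists in 0 cases, and 7 of the 18 were found in a single list. The share of all regions of the series with more control lists was not taken, so nothing is read from this count either.

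The Tab1 promoter was occupied in every post-mitotic library. Its strongest peak had a fold enrichment of 41.1 and 33.2 in early-G1 control, 18.6, 20.8 and 46.9 in mid-G1 control and 25.7 and 49.4 in late-G1 control. With auxin the values were 38.1 and 34.4 in early-G1, 31.6, 20.9 and 22.7 in mid-G1, and 21.7 and 22.0 in late-G1. All auxin values lay within the control range. The same peaks stood at rank 674.5 to 3324.5 of their own list in control (mean 1767 ± 975 SD, n = 7, rank 1 being the highest fold) and at rank 1669 to 6445 with auxin (3468 ± 1665 SD, n = 7). On the -log2 scale of the rank, auxin minus control averaged over the stages was -1.02, a lower place in the list, against a pooled SD of 0.82. Ranks overlapped with all stages together and in mid-G1. They did not overlap in early-G1 (1015.5 and 1614 in control, 1669 and 2128 with auxin). In late-G1 neither the folds nor the ranks overlapped (ranks 2418 and 937.5 in control, 4117.5 and 3445.5 with auxin).

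The shape of the promoter peak differed more than its height. In the 7 control lists the peak began 123 to 747 bp before the TSS (median 211), and in the 7 auxin lists 2017 to 4269 bp before it (median 2981). It ended 1635 to 2272 bp after the TSS in control and 1548 to 2237 bp after it with auxin. Upstream starts of the conditions did not overlap, and downstream ends did. Its width was 1847 to 3020 bp in control and 3566 to 6092 bp with auxin, again without overlap. The share of other promoters whose peaks separate in this way was not taken, so the change is not called particular to Tab1.

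Control lists were not empty upstream of the TSS. The stretch from 3 to 1 kb before the TSS was covered in part by peaks in all 7 control lists, with a mean of 803 bp of the kb from -3 to -2 and 839 bp of the kb from -2 to -1, against 893 and 1000 bp in auxin lists. In the kb just before the TSS the means were 617 bp in control and 1000 bp with auxin. In control the coverage from 3 to 1 kb before the TSS came from peaks listed apart from the promoter peak. In the last kb the control promoter peak itself, which began 123 to 747 bp before the TSS, gave part of the coverage. With auxin the promoter peak itself took in the last 2 kb before the TSS in all 7 lists, and in mid-G1 replicate 3, where it began at -2.02 kb, a further peak was listed apart from it at -2.79 to -2.08 kb. The 2001 bp promoter segment was covered in full in all 7 auxin lists, and for 1.64 and 1.81 kb in early-G1, 1.21, 1.35 and 1.74 kb in mid-G1 and 1.73 and 1.84 kb in late-G1 control lists.

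The summit of the promoter peak, where most reads pile up, lay close to the TSS in control, at 31 and 54 bp in early-G1, 56, 107 and 112 bp in mid-G1 and 30 and 51 bp in late-G1. With auxin it lay at 172 and 340 bp in early-G1, at 187, 240 and 339 bp in mid-G1 and at 822 and 875 bp in late-G1. Every auxin summit was farther into the gene than every control summit, and how often this holds at other promoters was not examined. The late-G1 auxin summits were farthest of all 14, beyond both earlier auxin stages.

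**Figure D2:**
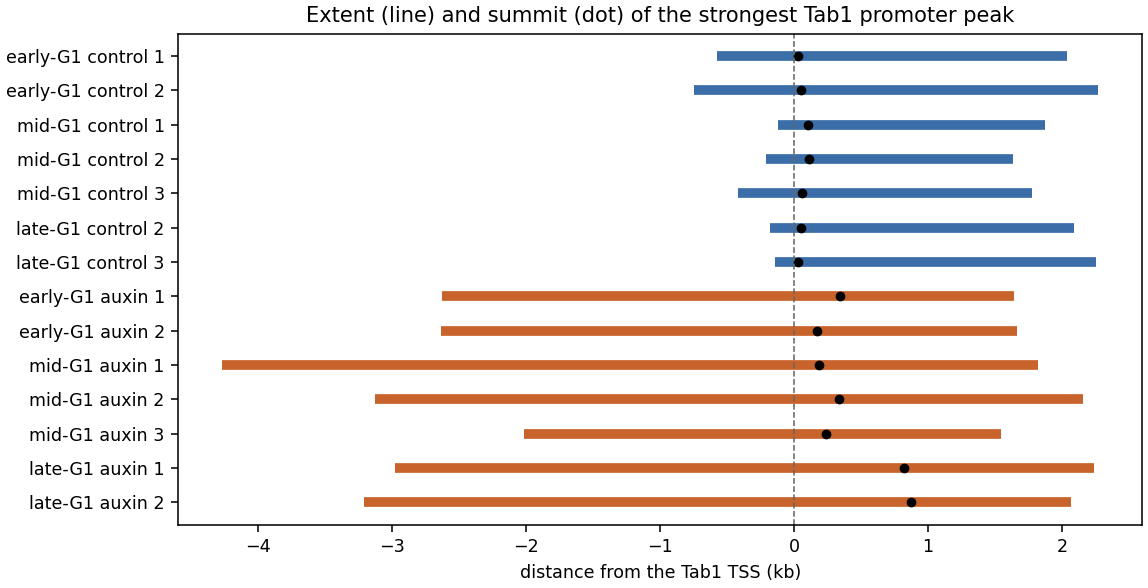
Extent (line) and summit (black dot) of the strongest Tab1 promoter peak in each of the 14 post-mitotic libraries, by distance from the TSS in kb, with control in blue and auxin in orange. Control peaks begin within 747 bp of the TSS and auxin peaks at least 2017 bp before it, while both end between 1548 and 2272 bp after it.

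Over the Tab1 body, the 27547 bp from 1 kb past the TSS to the gene's end, peaks covered much more of the sequence in control than in auxin lists. In early-G1 11.03 and 9.94 kb were covered in control and 2.29 and 2.76 kb with auxin. The mid-G1 lengths were 3.89, 9.34 and 10.1 kb without auxin and 2.30, 3.18 and 1.79 kb with it. By late-G1 they were 9.57 and 12.9 kb without and 2.32 and 2.33 kb with auxin. All 7 control libraries lay above all 7 auxin libraries, also within each stage.

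The means were 9.54 ± 2.77 kb (SD, n = 7) in control and 2.42 ± 0.435 kb (SD, n = 7) with auxin, which is 34.6% and 8.80% of the body and 3.94 times as much in control. Auxin minus control was -7.96 kb in early-G1, -5.37 kb in mid-G1 and -8.91 kb in late-G1, against a pooled SD within groups of 1.95 kb. Mid-G1 control replicate 1, at 3.89 kb, stood far below the other 6 control libraries, the lowest of which was at 9.34 kb. That library was also the shallowest, at 4.54 reads per kb, and the auxin library with the most covered, 3.18 kb, had 8.56 reads per kb. The other control libraries had 8.15 to 13.3 reads per kb. The part of depth in these values was not tested. With lengths scaled to the total covered length of each list, auxin minus control was -6.65 kb.

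**Figure D3:**
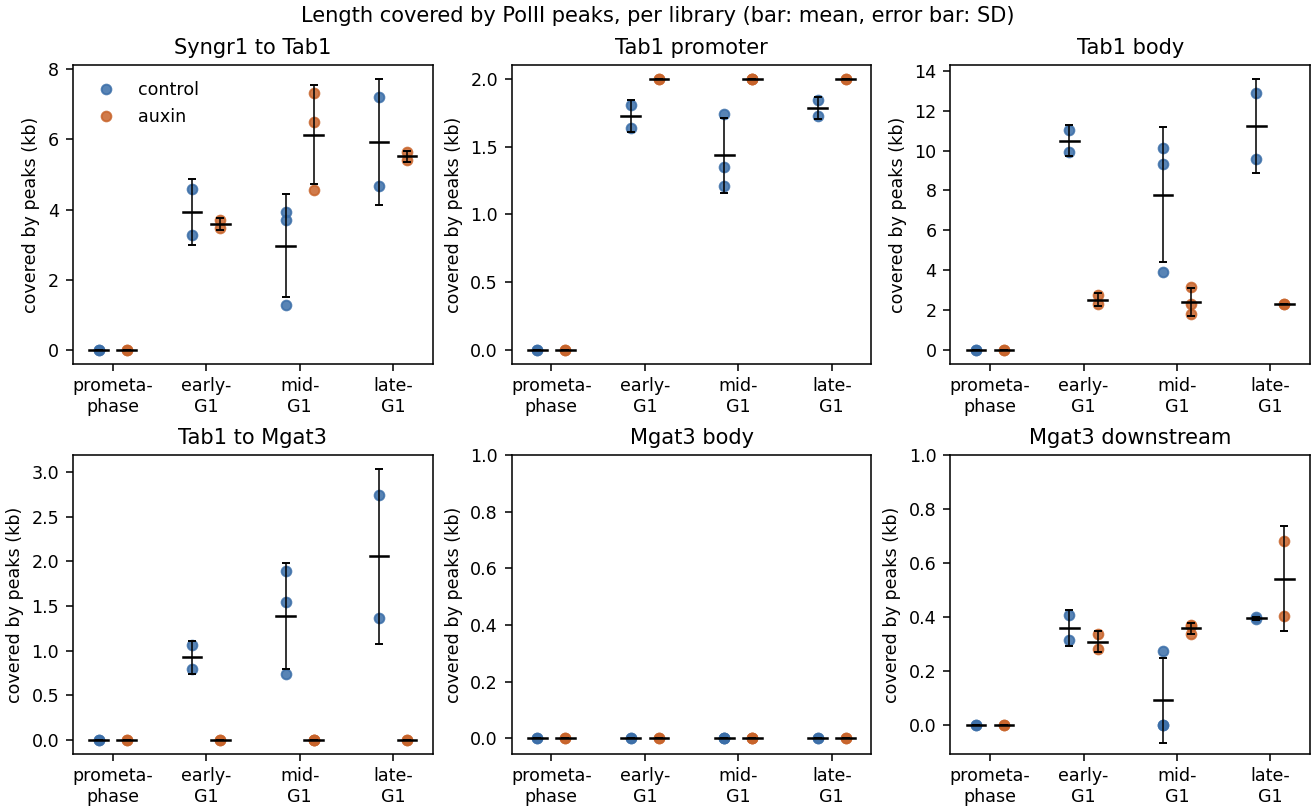
Length covered by PolII peaks, in kb, in 6 parts of the window by stage, with 1 point per library, blue for control and orange for auxin, a bar at the mean and the SD as error bar. The Tab1 body and the Tab1 to Mgat3 stretch separate the conditions at every stage after prometaphase, the stretch from Syngr1 to Tab1 does not, and the Mgat3 body is at 0 throughout.

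Among the 10610 coding genes over 2 kb with any post-mitotic peak in the body, 0.0754% had all 7 control shares above all 7 auxin shares, and 0.113% had the reverse. Tab1 was 1 of the 8 genes of the first kind. In order of auxin minus control, Tab1 stood at place 14 from the lowest with a difference of -25.9 percentage points, where the median gene was at -0.30. Among the 5801 genes with a TSS peak in all 14 lists it stood at place 9, and the 5th and 95th percentiles were -10.4 and 4.09 points. In control its covered share was at the 75.02 percentile of all these genes, and with auxin at the 47.8 percentile. The window was chosen with the control and auxin coverage of Tab1 in view, so nothing is read from these places.

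The strongest peak of the body also differed in height. Its fold enrichment was 13.9 and 11.8 in early-G1 control against 7.53 and 5.90 with auxin. The mid-G1 folds were 12.1, 14.5 and 15.5 against 6.45, 9.67 and 7.09, and the late-G1 folds 17.0 and 20.1 against 6.63 and 5.83. No control value fell below 11.8 and no auxin value exceeded 9.67.

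This peak held rank 5852.5 to 10434.5 in control lists (mean 7883 ± 1708 SD, n = 7) and rank 15998 to 41830.5 in auxin lists (29058 ± 8421 SD, n = 7). On the -log2 scale of the rank the difference was -1.87 against a pooled SD of 0.39, and the ranks did not overlap either. For fold and rank, unlike the covered share, no share over other genes was taken. In all 7 control lists the summit lay 13.5 to 14.4 kb from the TSS, in intron 1 near exon 2. In 6 auxin lists it lay 12.9 to 14.5 kb from the TSS, and in early-G1 auxin replicate 2 it lay at 4.57 kb.

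**Figure D4:**
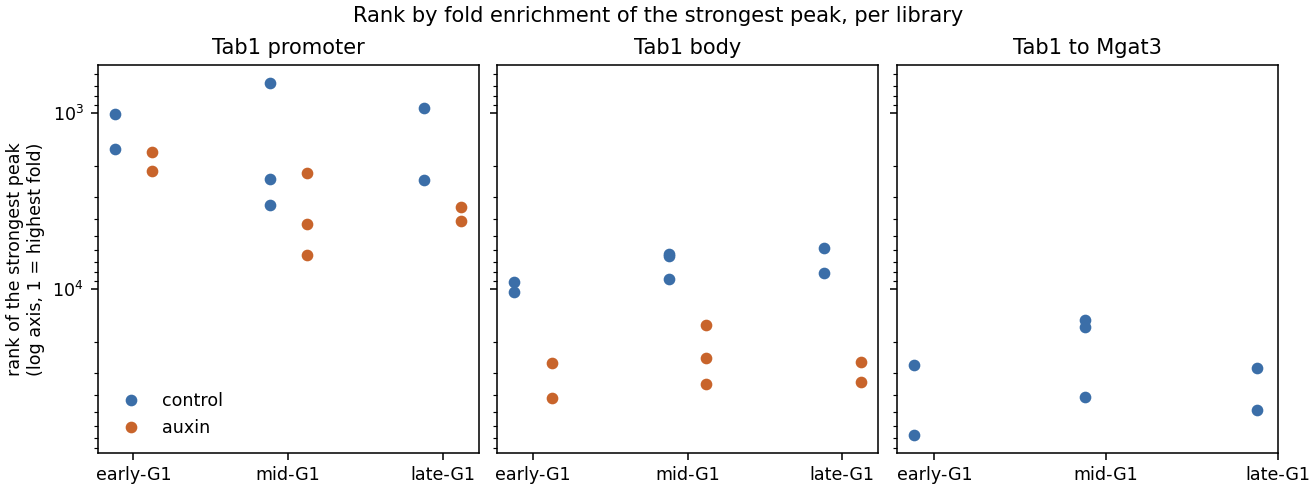
Rank of the strongest peak in the Tab1 promoter, the Tab1 body and the Tab1 to Mgat3 stretch within its own list, on a log axis with rank 1 (highest fold) at the top, for each post-mitotic library (control blue, auxin orange). Ranks overlap at the promoter, separate in the body, where no control rank is beyond 10434.5 and no auxin rank is before 15998, and exist in the last panel for control only.

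Over the whole gene the peaks followed intron 1. The counts of this paragraph start at the TSS, so they include the promoter peak and the first kb of the gene, which the body leaves out. Bases of this intron under peaks numbered 10184 and 9399 in early-G1 control, 4729, 8952 and 9093 in mid-G1 control and 9003 and 11827 in late-G1 control, and from 2758 to 4144 in the 7 auxin lists. Of the 103 peak summits within Tab1 in control lists, 95 were in introns and 8 in exons, and of the 39 in auxin lists all were in introns. Exons make up 10.3% of the gene, 5.04% of its covered bases in control and 1.02% with auxin. The only exon under peaks in auxin lists was the first, with its 35 bp, in all 7. From exon 5 to the end of the gene, control lists covered 0 to 844 bp and auxin lists 0.

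Cut into 1-kb bins from the TSS, the body had 27 bins, of which 7 held a peak in all 7 control lists and 3 in all 7 auxin lists. More control than auxin lists had a peak in 19 bins, as many in 8, of which 5 were empty in all lists, and more auxin lists in 0. No such count was taken over other genes, so these bins only describe where the lists differed. The 2 conditions met between 1 and 2 kb and between 13 and 15 kb from the TSS, where all 14 lists had a peak. From 13 to 14 kb the mean covered length was 975 bp in control and 545 bp with auxin. From 15 to 16 kb, across exon 2, all 7 control lists had a peak, with a mean of 854 bp, and 0 auxin lists did.

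The first 10 kb of the body showed the thinning by position. From 3 to 4 kb past the TSS a peak was present in 6 control and 3 auxin lists, from 4 to 5 kb in 6 and 2, and from 5 to 6 kb in 7 and 1. From 8 to 9 kb it was present in 6 and 0. The first printed sequence, from the region at 79968824 to 79969518, belongs to this part, and that region was in 7 control lists and in 0 auxin lists. From 17 to 22 kb 1 or 2 control lists had a peak in each bin, and from 22 to 27 kb none of the 18 lists did.

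**Figure D5:**
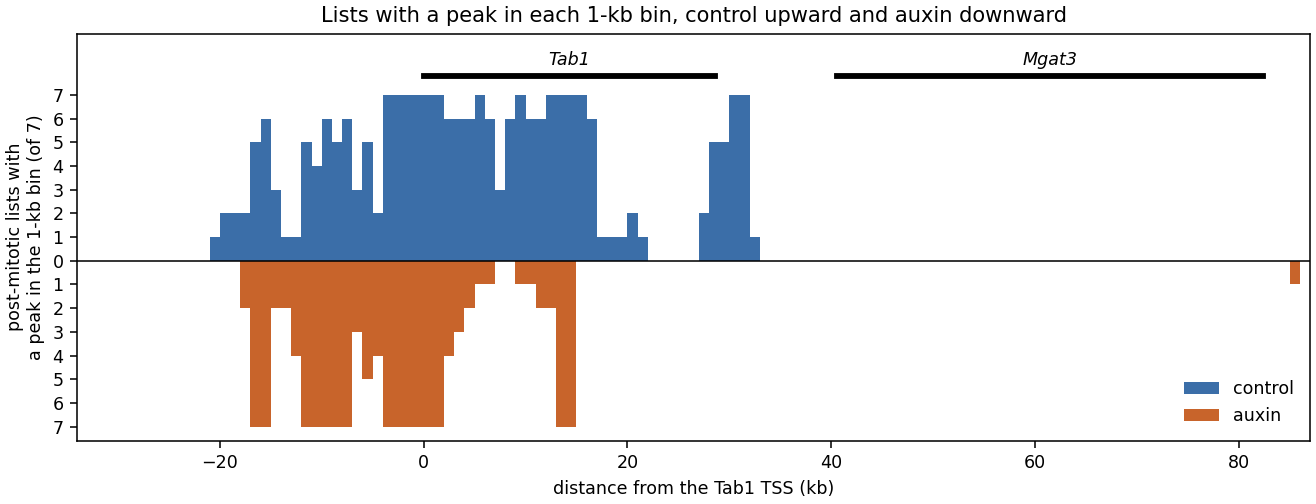
Number of post-mitotic lists with a peak in each 1-kb bin by distance from the Tab1 TSS, with control upward and auxin downward and the genes as black bars. Both conditions reach 7 lists around the TSS and at 13 to 15 kb, control alone is filled from 15 to 17 kb and from 27 to 33 kb, and the bins end at 86 kb, inside the peak near the right edge of the window.

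Past the end of Tab1 the difference was one of presence. The stretch between the Tab1 end and the Mgat3 promoter held peaks in all 7 control lists and in 0 of 7 auxin lists. The covered length in control was 0.798 and 1.06 kb in early-G1, 0.740, 1.54 and 1.89 kb in mid-G1 and 1.37 and 2.75 kb in late-G1 (1.45 ± 0.704 kb, SD, n = 7). Auxin minus control was -0.929, -1.39 and -2.06 kb in the 3 stages, against a pooled SD of 0.459 kb.

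The strongest peak of this stretch had a fold enrichment of 4.93 and 6.67 in early-G1, 5.19, 7.78 and 10.2 in mid-G1 and 6.14 and 5.68 in late-G1 control, at ranks from 14989.5 to 67579.5. Since the lists differ in length, these places lay 63.0% and 26.1% down the list in early-G1, 81.1%, 18.5% and 14.7% in mid-G1 and 35.1% and 41.7% in late-G1, so they varied widely between libraries. The post-mitotic auxin lists held peaks elsewhere down to folds of 2.03 to 2.66. These are the lowest folds of whole lists, and the fold that a peak needs depends on the local background. In early-G1 auxin replicate 2, window peaks of 9 reads had a fold of 4.19 at a background of 1.39 reads and 3.41 at 1.93. Whether the weakest control peaks of this stretch would have been listed in auxin libraries was not tested. The last control peak of this stretch ended 32.0 kb from the Tab1 TSS, well short of Mgat3. One merged region, at 79992580 to 79995233 and the source of the third printed sequence, was in 7 control and 0 auxin lists, and the region over the last bases of Tab1, at 79991324 to 79992499, in 5 and 0.

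Mgat3 had no peak. Neither the 2001 bp of its promoter nor the 40798 bp of its body held one in any of the 18 lists, and from 33 to 85 kb after the Tab1 TSS no bin held a peak. Of 5904 coding genes over 40 kb in the annotation, 2270 likewise had no post-mitotic peak in their span. A list only holds what passed the threshold of the peak caller, so PolII below it was not detectable here. The last peak of the window lay past the Mgat3 end, in a region at 80049507 to 80050250. It was listed in 5 of 7 control and 7 of 7 auxin libraries, and the covered length past Mgat3 was 0 to 0.408 kb in control and 0.281 to 0.681 kb with auxin, so the conditions overlapped.

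The empty Mgat3 promoter was the richest in CG dinucleotides. It had 76.0 per kb and 67.0% G or C, against 45.0 per kb and 54.2% for the Tab1 promoter and 14.3 per kb for the window. In 1-kb bins from the Tab1 TSS, 3 of 119 bins held 40 or more, namely the bin at the Mgat3 start with 122, a bin 78 to 79 kb from the Tab1 TSS with 65 and the bin at the Tab1 start with 55. Of all such bins on chromosome 15, 0.998% held as many. A CTCF core consensus of 12 letters, searched on both strands, had 0 matches in the window. Of the 836 windows of this length on the chromosome, 37.6% held 1 or more, and the median was 0. Sites that depart from this consensus were not counted, and CTCF binding was not examined. Whether CTCF binds in the window therefore stays unknown here.

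Upstream of Tab1 the conditions overlapped. Between the Syngr1 end and the Tab1 promoter, peaks covered 4.09 ± 1.78 kb (SD, n = 7, 1.27 to 7.20) in control and 5.23 ± 1.42 kb (SD, n = 7, 3.47 to 7.32) with auxin. Auxin minus control was -0.341 kb in early-G1, 3.16 kb in mid-G1 and -0.411 kb in late-G1, against a pooled SD of 1.25 kb. Over the 3' part of Syngr1 the lengths were 0 to 2.08 kb in control and 0.442 to 1.44 kb with auxin. These ranges overlapped too, unlike those of the Tab1 body and the stretch behind it. The whole window was covered for 18.0 ± 5.86 kb (SD, n = 7) in control and 11.04 ± 1.87 kb (SD, n = 7) with auxin with overlapping ranges.

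Between prometaphase and the later stages the window gained 14.5 kb under peaks, of which 5.98 kb lay in the Tab1 body, 1.81 kb in the Tab1 promoter and 0.724 kb in the Tab1 to Mgat3 stretch, as means over both conditions. All 4 prometaphase lists were at 0, and the parts were described because later lists held peaks in them, so these values are a description and no p is given. The prometaphase lists were also shorter as a whole, with 0.971 to 1.53 Mb under peaks against 22.7 to 73.3 Mb later.

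The course from 1 to 4 h after release was tested by exchanging the stage labels among libraries of the same condition, with p-values adjusted over the window and its 6 parts with peaks. P-values here measure the spread between libraries, which the study calls biological replicates. No change of covered length passed. The Tab1 body had a mean slope of 0.227 kb per hour (adjusted p = 0.680, exact two-sided permutation test over 44100 arrangements), made of 0.518 in control and -0.064 with auxin. The slope of the Tab1 to Mgat3 stretch was 0.368 kb per hour in control and 0 with auxin, where all lists were at 0, and its mean of 0.184 had an adjusted p of 0.217 in the exact permutation test. For the window the mean slope was 1.39 kb per hour (adjusted p = 0.270, exact permutation test). Scaled to the covered length of each list it was 1.79 kb per hour and passed (adjusted p = 0.00238, exact permutation test), while the scaled slope of the Tab1 body, 0.337 kb per hour, did not (adjusted p = 0.0708).

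The places of the Tab1 peaks in their lists were also compared between late- and early-G1 over the 15784 regions present in all 14 post-mitotic lists. With limma, 7.47% of these regions ranked higher and 7.29% lower in late-G1 at an adjusted p under 0.05, which is 1179 and 1150 regions. With a normal score of the rank the counts were 24 and 45, and without any of the 4 early-G1 libraries they were 694 to 734 and 640 to 711. The merged region of the Tab1 promoter moved by -0.61 ± 0.46 (SE) on the -log2 rank scale (adjusted p = 0.398, limma) and the region of intron 1 that holds the second printed sequence by 0.40 ± 0.25 (SE, adjusted p = 0.295, limma). Neither passed. Ranks are places within a list and carry no amount of PolII.

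Genes whose products work with TAB1 were given as a list of 14, and 13 of them had a TSS peak in a post-mitotic list, 12 in all 14 lists. Of the 20455 coding genes over 1 kb, 43.4% had a TSS peak in a post-mitotic list and 30.1% in all 14. Of the 13 tested in late- against early-G1, 0 ranked higher and 1 lower, beside the 7.47% and 7.29% of all regions, and their median difference was -0.09 where that of all regions was -0.03. The one was Mapk14, which encodes the p38-alpha MAP kinase and moved by -1.14 ± 0.35 (SE, adjusted p = 0.0435, limma). That call was lost with a normal score of the rank (adjusted p = 0.384, limma) and on leaving out any of 8 libraries, namely the 4 of early-G1, mid-G1 auxin replicate 3, late-G1 control replicate 2 and both of late-G1 auxin (adjusted p = 0.0546 to 0.154). Ranked by the p-value of the peak caller in place of the fold, Mapk14 did not pass either (adjusted p = 0.0749, limma). By fold, TSS regions stood at mean rank 536 for Mapk14, 1060 for Ube2n, the ubiquitin-conjugating enzyme UBC13, 1079 for Chuk, the kinase IKK-alpha, and 1543 for Map3k7, the kinase that TAB1 binds. The Tab1 region was at mean rank 2493. Map2k6, named after its values were seen, had no TSS peak.

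Over the 14 partners, auxin minus control in the covered share of the body ranged from -2.32 to 1.38 percentage points, with a median of -0.42, where Tab1 was at -25.9 and the median gene at -0.30. The share was 45.6% in control and 43.3% with auxin for Mapk14, 13.4% and 11.4% for Ube2n, 1.12% and 1.15% for Chuk, and 3.11% and 2.63% for Map3k7. Traf6, a ubiquitin ligase upstream of TAK1 that is named after its values were seen, had 2.24% in control and 0% with auxin. Tab1 was chosen with this difference in view, so nothing is read from its distance to the partners. No test was made of these shares.

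The list around Mgat3 held 11 enzymes of N-glycan branching, of which 7 had a TSS peak in a post-mitotic list and 4 in all 14, against the 43.4% and 30.1% of all coding genes. Of the 7 tested, 1 ranked higher in late-G1 and 0 lower, beside 7.47% and 7.29% of all regions, with a median difference of 0.24 where that of all regions was -0.03. It was Mgat4a, which adds a branch to the glycan and moved by 0.86 ± 0.24 (SE, adjusted p = 0.0296, limma), a call also lost with a normal score (adjusted p = 0.616, limma) and on leaving out any of 6 libraries, namely early-G1 control replicate 2, both of early-G1 auxin, late-G1 control replicate 3 and both of late-G1 auxin (adjusted p = 0.0642 to 0.137). The highest mean ranks were those of Mgat4b (631) and Mgat2 (987), further branching enzymes, of Fut8 (2015), which adds the core fucose, and of B4galt1 (2265), a galactosyltransferase. Like Mgat3, the 4 members Mgat4c, Mgat5, Mgat5b and Man2a1 had no TSS peak in any post-mitotic list, and they are named here after their values were seen.

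By covered share of the whole gene over the 14 post-mitotic lists, 3 of 6444 coding genes followed Tab1 most closely. Pabpc4, which encodes a cytoplasmic poly(A)-binding protein, had a Pearson r of 0.952 with means of 27.03% in control and 6.22% with auxin. Alg5, which makes the glucose donor of N-glycan assembly, had an r of 0.946 with 46.3% and 15.0%, and 2610029I01Rik an r of 0.946 with 9.75% and 3.597%. Of these, Pabpc4 was covered for 12.6% to 40.3% in control and 1.12% to 8.97% with auxin, without overlap. The 14 points share their depth and their auxin condition, so the values describe likeness only. Mgat3, at 0 in every list, had none.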

How the data were processed

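PolII ChIP-seq was deposited as 18 peak lists, and the 4 input libraries were not analysed here. The authors aligned reads to mm9 with Bowtie2 2.2.9, removed duplicates and reads of mapping quality under 10 with SAMtools 0.1.19, and called peaks in each library against input with MACS2 2.1.0 at a q of 0.01. bedtools 2.27.1 is named in their processing notes. The deposited columns hold a score, the fold enrichment (a ratio to the local background), and −log10 p-values and q-values, all as the authors' peak caller gave them. No read counts were used.

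Here, peaks sharing 1 bp were merged into regions, and covered bases, detection and the rank by fold were taken per library with Python 3.11.15, numpy 2.4.6 and scipy 1.17.1. A peak's rank was credited to the part that holds its summit. Gene models were those of GENCODE vM1. Sequence was read from the mm9 reference with samtools 1.23.1, and neither Tab1 nor Mgat3 was in the RefSeq promoter table. Figures were drawn with matplotlib 3.10.9. Reads under a summit were solved from fold and p, whole in 99.7% or more of 1500 peaks per list to within 0.01. Depth is the commonest background over the narrowest peak and is an estimate. Limma 3.58.1 (R 4.3.3) was used on −log2 ranks, and it and the permutation tests were first tested on simulated data.

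Members and gene lists were chosen with earlier results of these data known. Named were Tab1, Mgat3, their neighbours, list members called by limma and at most 4 further members per list by mean rank, and the 3 genes most like Tab1 among those whose covered share ranged by at least 0.1. Libraries with the same number were not treated as pairs: their deviations correlated at -0.048 to 0.297 over 28 pairs (mean 0.050). Those of libraries with different numbers correlated at -0.297 to 0.173 over 53 pairs (mean -0.027). In groups of 2 libraries the deviations mirror each other, so these values are not independent and cannot settle whether the numbers mark pairs.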

Additional observations from a re-analysis of the deposited data

Results flagged for a closer look

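Among 12 sets of 7 libraries, 2 held a library far from the others, and chance gives about 1 in 20 such sets. In the Tab1 body, mid-G1 control replicate 1 had 3.893 kb under peaks, where the next control library had 9.339 kb. Past the Mgat3 end, late-G1 auxin replicate 2 had 0.681 kb, where the next auxin library had 0.405 kb. The first of these is the library of least depth, at 4.54 reads per kb, and the part of depth was not tested. Without it, auxin minus control in the Tab1 body was -8.06 kb.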

How the results depend on the processing

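Of 633 alternative values for 45 results, most kept their direction and, where there was a p, their side of the threshold. Gains over prometaphase could not change direction, since all 4 prometaphase lists were at 0. Auxin minus control had no p and rests on the values by which the window was selected. The tally is therefore not read as support for those results. With lengths scaled to the covered length of each list, the slopes of the window (1.79 kb per hour), the 3' part of Syngr1 (0.277) and the Syngr1 to Tab1 stretch (0.838) passed, the gain of the Tab1 to Mgat3 stretch over prometaphase was 0.725 kb, and auxin minus control at the Tab1 promoter was 0.504 kb. With a promoter of 500 bp on either side it was 0.143 kb, and the promoter slope turned to -0.021. Leaving out 1 library gave 0.616 to 0.784 kb for that gain, -0.185 to 0.442 kb per hour for the Tab1 body slope, negative without late-G1 control replicate 3, and -8.06 to -6.86 kb for auxin minus control in the Tab1 body. With the replicate block the window slope was 0.619 kb per hour, and the slopes of the Tab1 promoter (-0.00699) and body (-0.129) turned. With the block and the scaling together, a combination chosen after seeing the data, the window slope was 1.67 (adjusted p = 0.0243, exact permutation test). With peaks credited to every part they overlap, the promoter peak counts for its neighbours, and auxin minus control in -log2 rank became 2.00 for Syngr1 to Tab1 and -1.02 for the Tab1 body. Limma called 24 regions higher and 45 lower with a normal score of the rank, against 1179 and 1150, and 2511 and 1932 among regions in 10 or more lists. Without 1 library the counts were 694 to 1278 and 640 to 1291, down by over 1.5 times without any of the 4 early-G1 or 2 late-G1 auxin libraries, and with the replicate block 1425 and 1300. Where no reason is given, the cause was not tested.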
